A study of Mus musculus with 35 samples.

Results

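The genes described here are 10 genes of the mouse major histocompatibility complex (MHC) class II pathway: the antigen-presenting chains H2-Aa, H2-Ab1 and H2-Eb1, the invariant chain Cd74, the transactivator Ciita, and the peptide editors H2-DMa, H2-DMb1, H2-DMb2, H2-Oa and H2-Ob. They were chosen by name, and all 10 were found among the 53379 gene rows of the count table. RNA was sequenced from myeloid-derived suppressor cells (MDSC) and bulk tumors of female C57BL/6 mice that all carried an orthotopic pancreatic tumor grown from T110299 cells, a KPC-derived line. Of 8 mice, 4 received 50 µg of poly(I:C), a synthetic double-stranded RNA, complexed to polyethylenimine (poly(I:C)c) intravenously on days 18 and 20, and 4 received glucose and are called untreated. After CD11b enrichment with magnetic beads, live polymorphonuclear MDSC (PMN-MDSC; CD11b+ Ly6Clo Ly6G+) and monocytic MDSC (M-MDSC; CD11b+ Ly6Chi Ly6G-) were sorted from spleen and tumor. The 9 groups hold 4 libraries each, except that 3 remain for PMN-MDSC from treated spleens and 3 for M-MDSC from treated tumors, where a further library with 10 counts was left out. Bulk tumor was sequenced from untreated mice only. Library numbers below only name a library within its group, and a library of the same number in another group need not come from the same mouse.

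MHC class II molecules carry peptides from ingested proteins to CD4+ T cells, and they are best known from dendritic cells, macrophages and B cells. The invariant chain guides the newly made alpha and beta chains to endosomes with the groove closed, H2-DM exchanges its last fragment for peptide, and H2-O restrains H2-DM. Ciita binds no DNA itself but joins the factors RFX, CREB and NF-Y on the promoters of these genes, so that its amount sets theirs in most cells. Mice of the C57BL/6 strain have a defective I-E alpha gene, so H2-Eb1 is transcribed there without a partner chain at the cell surface.

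MDSC libraries held 793070 to 4357105 counts (median 2459368.5) and bulk tumor libraries 3771590 to 8886115, so that 3 counts stood for 0.338 to 3.78 CPM by library total. Levels below are in CPM, counts brought to a common library size with TMM factors. The sorting antigens were checked first. In spleen, PMN-MDSC held 36.7 to 97.0 CPM of Ly6g untreated and 331 to 466 treated, against at most 4.33 CPM in M-MDSC. In untreated tumors, the 4 PMN-MDSC libraries held 0, 1.56, 9.19 and 0.924 CPM of Ly6g, next to 486 to 612 CPM of the macrophage gene C1qa and 299 to 428 CPM of the monocyte receptor gene Ccr2. The untreated tumor PMN-MDSC libraries thus held little or none of the transcript of the antigen that defines the gate, and the treated ones held 10.2, 26.5, 4.98 and 84.7 CPM; every value for tumor PMN-MDSC below is that of the library so labelled. In treated tumors, M-MDSC library 2 held 2.86 CPM of Ly6c2 against 602 and 418 in libraries 1 and 3, and 2101 CPM of C1qa against 368 and 908. Calls of class II genes that change without this library, and fold changes that turn or move by more than 1.5 times, are also given without it.

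The promoters are shown because class II promoters are known for the elements through which Ciita acts, and 6 of the 10 members held their letters here. Of the 10 genes, 7 had an entry among the RefSeq promoter windows (GRCm38.p6; 250 bases before to 50 after the gene start), with 8 windows in all, since H2-DMa has more than one. The Y box core TGATTGG, which NF-Y binds, was searched on both strands together with AAC, the end of the X box core, at 20 to 35 bases before it. Both were found on the gene strand in 6 of 8 windows, all but those of H2-DMa. Over all 32851 windows, the pair lay on the gene strand in 0.651% (1.46% on either strand), and TGATTGG alone in 4.01% (7.82% on either strand). A match of letters is a description and not a site. In the stretches below, written 5′ to 3′ on the gene strand, capitals mark every AAC in that range and the TGATTGG.
H2-Aa, minus strand, chr17:34287859-34287910: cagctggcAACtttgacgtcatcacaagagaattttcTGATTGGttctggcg
H2-Eb1, plus strand, chr17:34305763-34305820: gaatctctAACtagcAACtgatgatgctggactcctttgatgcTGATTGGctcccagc
H2-DMb1, plus strand, chr17:34153091-34153142: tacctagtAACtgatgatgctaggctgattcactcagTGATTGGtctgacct
H2-DMb2, plus strand, chr17:34145120-34145171: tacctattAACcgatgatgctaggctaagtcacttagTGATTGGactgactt
H2-Oa, plus strand, chr17:34092297-34092348: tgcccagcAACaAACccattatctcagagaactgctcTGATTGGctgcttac
H2-Ob, plus strand, chr17:34238812-34238860: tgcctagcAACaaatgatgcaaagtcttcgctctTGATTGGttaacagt

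The class II genes lie together on chromosome 17 (GRCm38), from H2-Oa at chr17:34092340-34095234 to H2-Eb1 at chr17:34305867-34316674, with H2-DMa, H2-DMb2, H2-DMb1, H2-Ob, H2-Ab1 and H2-Aa between them. Ciita lies apart at chr16:10480059-10528418. The promoter stretches of H2-DMb1 and H2-DMb2 resemble each other, as do the genes, so reads could be split between them or lost, and their counts are uncertain to that extent. H2-Ea-ps, the defective I-E alpha gene, had 0 counts in every library, which allows up to 0.338 to 3.78 CPM (the range over libraries of what 3 counts stand for). H2-Eb2, a second I-E beta gene, stayed between 0 and 15.1 CPM and was below the count filter in the treatment comparisons. In spleen M-MDSC it held 1.63 to 4.82 CPM untreated and 5.03 to 15.1 treated, higher without overlap. In spleen PMN-MDSC it held 3.88 to 7.34 CPM untreated and 0 to 2.18 treated, lower without overlap.

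Per kilobase of exon, which allows genes to be compared, Cd74 was the most abundant member in every group. In PMN-MDSC from untreated tumors its level was 2854 ± 476 FPKM (CPM per kilobase of exon; mean ± SD, n = 4), against 570.0 ± 75.4 for H2-Eb1, 499 ± 65.8 for H2-Ab1 and 238 ± 41.1 for H2-Aa. H2-DMb1 followed with 62.9 ± 8.59 FPKM, H2-DMa with 32.7 ± 4.02 and Ciita with 16.1 ± 2.0. H2-DMb2 (4.69 ± 1.39), H2-Oa (1.14 ± 0.796) and H2-Ob (0.843 ± 0.414) stood far below, and the last pair did not differ beyond its spread. In M-MDSC from untreated spleens, Cd74 reached 1261 ± 371 FPKM and Ciita 25.4 ± 5.01, the highest Ciita level of the 9 groups, with 20.3 ± 3.20 in M-MDSC from untreated tumors as the nearest group and within its spread.

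**Figure D1:**
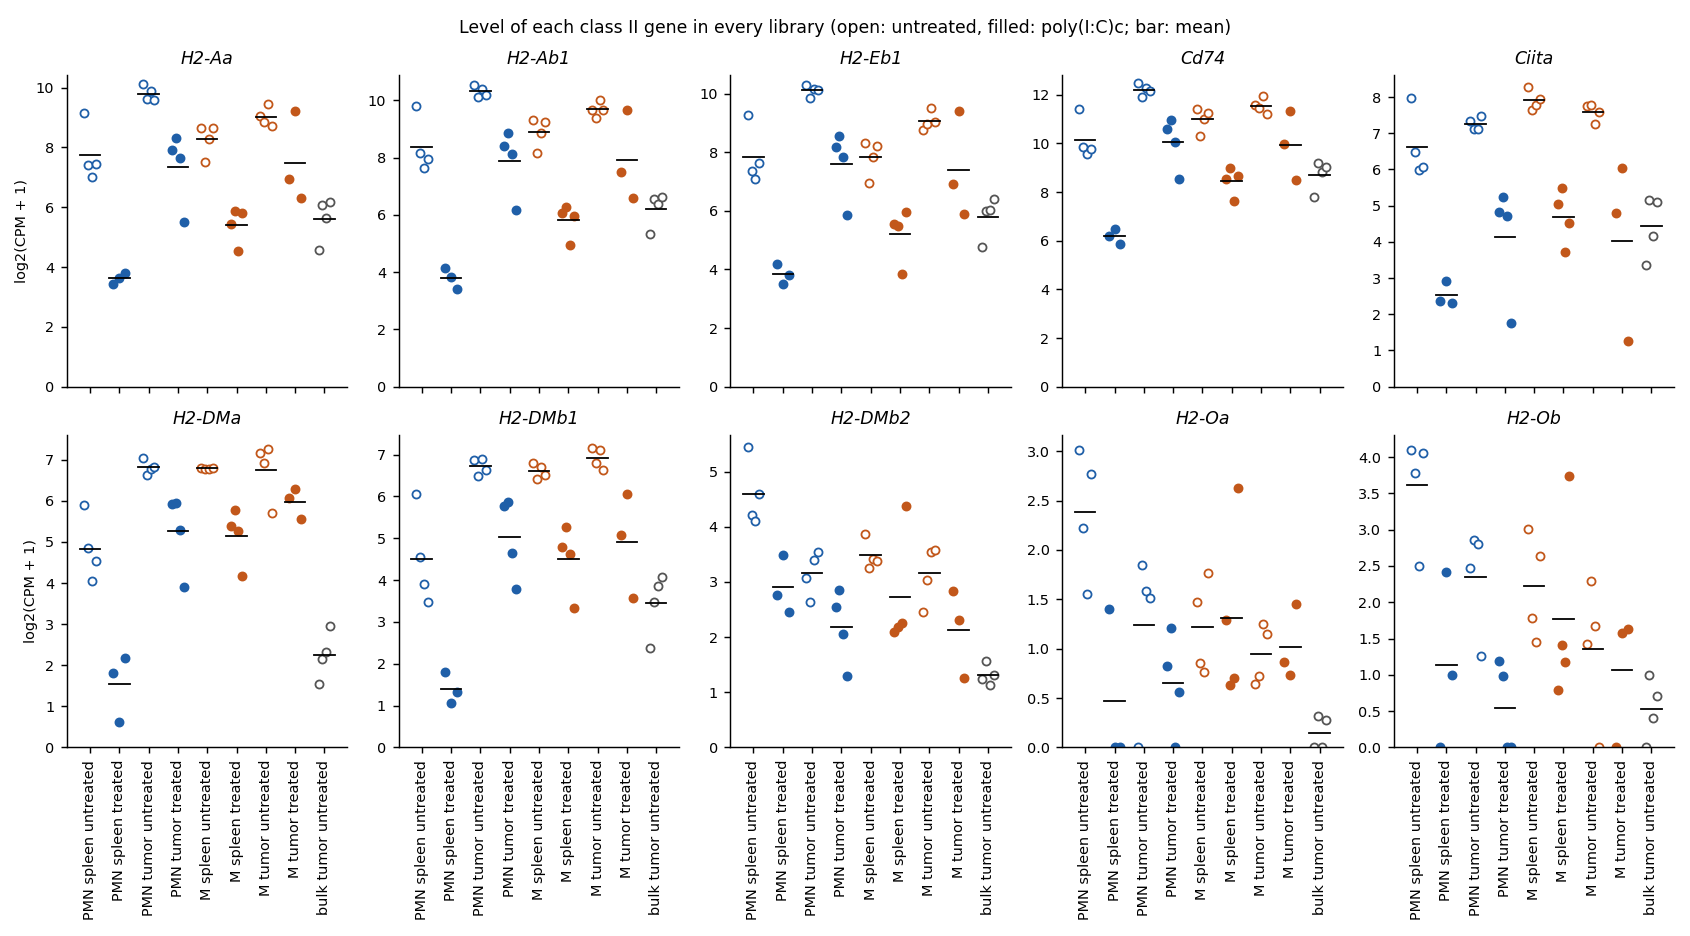
Each panel plots 1 gene, with log2(CPM + 1) on the vertical axis and the 9 groups on the horizontal axis; each point is a library, open for untreated and filled for treated mice, in blue for PMN-MDSC, orange for M-MDSC and grey for bulk tumor, and bars are means of the plotted values. H2-Aa, H2-Ab1, H2-Eb1 and Cd74 follow the same pattern over the groups, with treated spleen PMN-MDSC lowest; for H2-DMb2, H2-Oa and H2-Ob untreated spleen PMN-MDSC have the highest mean.

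In PMN-MDSC of the spleen, poly(I:C)c lowered all 8 class II genes that had enough counts to be tested, by 1.85 to 4.97 on the log2 scale. H2-Ab1, the beta chain of I-A, held 891, 282, 199.5 and 244 CPM in the 4 untreated libraries and 16.5, 13.1 and 9.52 CPM in the 3 treated ones. Cd74 held 2706, 929, 752 and 881 CPM untreated and 72.8, 88.6 and 57.6 treated. Every treated library was below every untreated one for both genes, and untreated library 1 was the highest of the 4 for all 10 members. Ciita held 250.5, 88.2, 62.5 and 65.5 CPM untreated and 4.13, 6.53 and 4.01 treated, also without overlap. The log2 fold change was −4.97 ± 0.683 for H2-Ab1 (± SE; adjusted p = 0.00448, edgeR quasi-likelihood test with Benjamini-Hochberg adjustment over 7261 genes), −4.17 ± 0.565 for Cd74 (adjusted p = 0.00411) and −4.56 ± 0.674 for Ciita (adjusted p = 0.00595). Without untreated library 1 these were −4.22, −3.54 and −3.85, and those of H2-Aa and H2-Eb1 went from −4.49 and −4.37 to −3.76 and −3.60, all still called. H2-Aa, the alpha chain of I-A, fell from 258 ± 204 to 11.5 ± 1.55 CPM (adjusted p = 0.00500) and H2-Eb1 from 278 ± 228 to 13.6 ± 3.55 CPM (adjusted p = 0.00667).

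The H2-DM genes fell as well in spleen PMN-MDSC, H2-DMb1 to the limit of detection in each treated library. H2-DMb1 had 232, 37, 36 and 28 counts untreated and 3, 2 and 3 counts treated, and H2-DMa 209, 46, 40 and 61 against 3, 1 and 7. Pooled and scaled to the library totals with their TMM factors, this is 20.0-fold lower for H2-DMb1 (95% exact interval 10.0 to 46.7, counting error only) and 15.5-fold lower for H2-DMa (8.58 to 31.4), with adjusted p = 0.0222 and 0.0137 in edgeR. Without untreated library 1 the pooled folds were 9.14 (4.46 to 21.7) for H2-DMb1 and 9.67 (5.25 to 19.8) for H2-DMa. The fitted log2 fold change of H2-DMa was −3.82, and −4.48 without treated library 3. H2-DMb2 fell least, from 25 ± 12.2 to 6.88 ± 3.06 CPM (log2 fold change −1.85 ± 0.485, adjusted p = 0.0423). H2-Oa and H2-Ob were below the filter of a mean of 25 counts and are given as values only: H2-Ob held 16.1, 12.8, 4.66 and 15.6 CPM untreated and 0, 4.35 and 1.0 treated, and H2-Oa 7.06, 3.65, 1.94 and 5.82 against 1.65, 0 and 0. For the last pair, 2 and 5 counts (H2-Oa) and 8 and 12 counts (H2-Ob) were the nearest values of the groups, so that their separation lies close to the counting limit. The treated libraries lay below all untreated ones for each of the 8 members tested, as for 13.8% of all genes tested. Of all genes tested, 5.52% were called lower. The median log2 fold change was −4.27 over the members tested and 0.01 over all genes tested.

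The study applied stricter limits to its own DESeq2 results, an adjusted p below 0.001 together with a 2-fold change or more. At these limits 0 of the 8 genes passed in edgeR, where 3 of all 7261 genes did and 0% were called lower. Without untreated library 1, the log2 fold change of H2-DMb2 was −1.45 and its call was lost (adjusted p = 0.0667); the call was likewise lost without untreated library 4 (0.0891) and without treated library 1 (0.0801), 2 (0.0518) or 3 (0.143). That of H2-DMb1 was lost without treated library 2 (adjusted p = 0.0718) or 3 (0.0857), and the gene fell below the count filter without untreated library 1. The calls of the other 6 genes were kept without any 1 library. Markers of other cells moved in the same libraries. Of the 12 macrophage markers, 11 were tested and 9 were lower, and their summed level was 557 to 1811 CPM untreated and 94.7 to 204 treated. Of the 12 conventional dendritic cell markers, 4 were tested and all 4 were lower, with sums of 334 to 560.3 against 15 to 99.5 CPM, and Flt3 and Xcr1 were at 0 in each treated library. Cd209a fell from 18.0 ± 16.9 to 0.167 ± 0.289 CPM, Mrc1 from 132 ± 85.0 to 3.93 ± 2.36 and Ccr2 from 99.2 ± 91.3 to 1.69 ± 0.715, while 4 of 9 neutrophil markers rose, Ly6g from 63.3 ± 25.1 to 392 ± 68.8 CPM, where 6.10% of all genes were called higher. Of 5 classical monocyte markers tested, 2 rose, among them Ly6c2 from 72.6 ± 29.6 to 1160.3 ± 352 CPM (adjusted p = 0.00126), and 2 fell, Ccr2 and Csf1r; the sums of 841 to 2247 CPM untreated and 1125 to 2250.5 treated overlapped. Of 6 B cell markers tested 1 fell, Bank1, from 55.2 ± 26.4 to 13.8 ± 8.41 CPM (adjusted p = 0.0458), and the B cell sums of 354 to 461 and 293 to 396 CPM overlapped. The part of these cells in the fall of the class II genes was not tested; in a sorted population, fewer cells of a type and less RNA per cell cannot be told apart.

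In M-MDSC of the spleen, poly(I:C)c lowered 7 of the 8 genes tested, the antigen-presenting chains and Ciita most. H2-Ab1 held 631, 285, 464 and 598 CPM untreated and 66.4, 76.7, 30.2 and 60.7 treated, a log2 fold change of −3.13 ± 0.336 (adjusted p = 3.5e-04). Ciita held 308, 199, 218 and 245 CPM untreated and 32.1, 44.2, 12.3 and 21.8 treated, a change of −3.18 ± 0.343 (adjusted p = 3.6e-04). No treated library reached the level of an untreated one for either gene. H2-Aa fell from 324 ± 104 to 44.2 ± 15.9 CPM (adjusted p = 6.0e-04), Cd74 from 2116 ± 622 to 369 ± 127 (7.8e-04) and H2-Eb1 from 242 ± 88.1 to 41 ± 20.0 (0.00438). H2-DMa fell less, from 109.8 ± 1.15 to 37.4 ± 15.3 CPM (log2 fold change −1.60 ± 0.260, adjusted p = 0.00292), and H2-DMb1 from 96.8 ± 11.9 to 24.2 ± 11.6 (−2.04 ± 0.315, adjusted p = 0.00230). The treated libraries lay below all untreated ones for these 7 of the 8 genes, and for 10.8% of all genes tested.

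H2-DMb2 did not pass in spleen M-MDSC (log2 fold change −0.50 ± 0.588, adjusted p = 0.589): it held 13.7, 8.54, 9.74 and 9.44 CPM untreated and 3.25, 3.57, 3.77 and 19.8 treated, so that 3 treated libraries were below all untreated ones and treated library 4 above. Library 4 also held the most H2-Ob (12.3 CPM against 0.722 to 1.65 in the other 3) and H2-Oa (5.16 against 0.550 to 1.44). In the same library, B cell markers summed to 333 CPM against 83.0 to 121, with Cd79a at 29 against at most 1.65, and Siglech, a plasmacytoid dendritic cell gene, at 19.5 against at most 2.52. The 7 calls held without this library and without any other. Of all 8827 genes tested, 8.96% were called lower. At the stricter limits 4 members passed (H2-Aa, H2-Ab1, Cd74 and Ciita), where 0.646% of all genes were called lower. The median log2 fold change was −2.59 over the members and −0.01 over all genes. Of 9 macrophage markers tested here, 4 rose and 1 fell, where 10.7% of all genes were called higher, and the sum was 393 to 494 CPM untreated and 681 to 1029.5 treated. Of 5 conventional dendritic cell markers tested, 2 fell, and the sums of 140.2 to 281 and 143 to 245 CPM overlapped. Classical monocyte markers summed to 5086 to 7776 CPM untreated and 2847 to 4249 treated, without overlap, and their median log2 fold change was −0.20. Of 7 tested, 2 fell, among them Ccr2 from 1147 ± 131 to 179 ± 85.8 CPM (log2 fold change −2.73 ± 0.322, adjusted p = 5.7e-04), and 2 rose, among them Ly6c2 from 122 ± 36.7 to 847 ± 88.3 CPM. Their part in the fall of the class II genes was not tested.

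**Figure D2:**
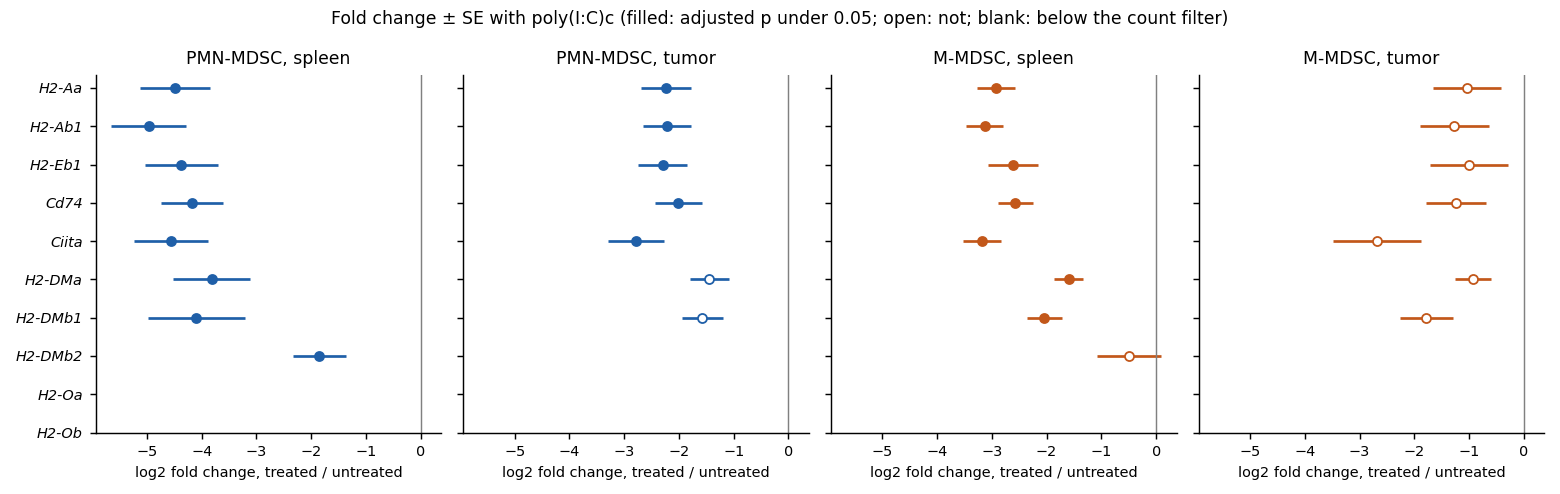
Points are log2 fold changes of treated over untreated libraries with bars of 1 standard error (horizontal axis), for each member (vertical axis) in the 4 treatment comparisons; filled points have an adjusted p under 0.05, open points do not, and members below the count filter have no point. All points lie below 0, from −4.97 for H2-Ab1 in spleen PMN-MDSC to −0.50 for H2-DMb2 in spleen M-MDSC, and the tumor M-MDSC panel has open points only.

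In PMN-MDSC of the tumor, 5 of 7 genes tested fell with poly(I:C)c. H2-Ab1 held 1491, 1118, 1343 and 1175 CPM untreated and 342, 465, 281 and 70.8 treated, a log2 fold change of −2.22 ± 0.441 (adjusted p = 0.0232). Ciita held 161, 137, 138 and 177 CPM untreated and 27.6, 36.6, 25.4 and 2.39 treated, a change of −2.79 ± 0.512 (adjusted p = 0.0188). Treated library 4 was the lowest of its group for 8 of the 10 members, and for both genes all treated libraries lay below all untreated ones. H2-Eb1 fell from 1108 ± 147 to 237 ± 134 CPM (adjusted p = 0.0189), H2-Aa from 903 ± 156 to 201 ± 115 (0.0283) and Cd74 from 4792 ± 799.5 to 1257 ± 703 (0.0291). H2-DMa, at 113 ± 13.9 against 43.0 ± 22 CPM, and H2-DMb1, at 106 ± 14.4 against 37.0 ± 21.9, missed the threshold (adjusted p = 0.0548 and 0.0502) although their groups did not overlap. H2-Ob, below the filter, held 4.53, 6.22, 5.99 and 1.39 CPM untreated and 1.28, 0.981, 0 and 0 treated. The treated libraries lay below all untreated ones for the 7 members tested, as for 3.90% of all 8308 genes tested, and 1.07% of these genes were called lower. The median log2 fold change was −2.22 over the members and 0.01 over all genes.

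These 5 calls lie close to the threshold. The count was 0 without untreated library 1, untreated library 3 or treated library 3, 2 without untreated library 2 or 4, 3 without treated library 1, 6 without treated library 2 and 7 without treated library 4, while the log2 fold changes of the 5 genes stayed between −3.09 and −1.70. At the stricter limits 0 passed, and 0% of all genes were called lower. Treated library 4 held the most Ly6g of its group (84.7 CPM against 4.98 to 26.5) and the smallest conventional dendritic cell sum (145 against 271 to 373 CPM; 395 to 455 untreated). Of 3 such markers tested, 1 was lower, Kmo, from 19.6 ± 3.36 to 3.65 ± 1.79 CPM. Of 10 macrophage markers tested, 1 was higher and 0 were lower in edgeR, where 2.29% of all genes were called higher, and the sums were 3551 to 4494 CPM untreated and 3461 to 6382 treated. Classical monocyte markers summed to 4766 to 8990.4 CPM untreated and 2469 to 3623 treated, without overlap. Their median log2 fold change was −0.23, and Fn1 made up much of the untreated sum. Of 7 tested, 2 fell, among them Fn1 from 4649 ± 1475 to 652 ± 354 CPM (adjusted p = 0.00337), and 2 rose, among them Ly6c2 from 5.91 ± 4.37 to 148 ± 87.9 CPM. B cell marker sums were 83.3 to 126 CPM untreated and 144 to 194 treated, without overlap, and of 3 tested 1 rose, Cd22, from 29.1 ± 4.0 to 60.3 ± 17.4 CPM (adjusted p = 0.0402). Of 4 epithelial markers tested 1 fell, Cdh1, from 79.1 ± 46 to 13.4 ± 4.34 CPM (adjusted p = 0.0108), and the epithelial sums of 126 to 714 and 77.5 to 179.6 CPM overlapped. The part of these cells in the fall of the class II genes was not tested.

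In M-MDSC of the tumor, 0 of 7 genes tested passed in edgeR; 3 had an unadjusted p under 0.05, and DESeq2 called 1, H2-DMb1, and gave no p for H2-Aa. H2-Ab1 held 814, 673, 1021 and 813 CPM untreated and 179.7, 802 and 94.7 treated, and H2-Aa 524, 457, 707 and 422 against 123, 599 and 77.6. Treated libraries 1 and 3 lay far below the untreated ones, and treated library 2 lay among them. The groups did not overlap for Ciita, at 213, 219, 152 and 189.5 against 26.9, 64.2 and 1.39 CPM (log2 fold change −2.68 ± 0.804, adjusted p = 0.111), and for H2-DMb1, at 142, 111, 138 and 97.8 against 32.6, 66.2 and 10.8 (−1.78 ± 0.488, adjusted p = 0.0845). These are 2 of the 7 members tested, beside 8.13% of all genes with every treated library below the untreated ones. Of all 8360 genes tested, 1.06% were called lower. The median was −1.24 over the members and −0.00 over all genes.

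Library 2 decides this result. Without it, 6 of 7 genes passed, all but H2-DMa, with log2 fold changes of −2.63 for H2-Ab1 (adjusted p = 0.00264), −2.43 for H2-Aa (0.00264), −2.64 for H2-Eb1 (0.00519), −2.17 for Cd74 (0.0220), −3.85 for Ciita (0.0372) and −2.55 for H2-DMb1 (0.0103). Leaving out any other library gave 0. This is the library with 2.86 CPM of Ly6c2, and it held macrophage markers of 9731 CPM in sum against 2379 and 4453, conventional dendritic cell markers of 658 against 201 and 245 with Cd209a at 0, and T cell markers of 132 against 8.15 and 22.6. Classical monocyte sums were 10017 to 13643 CPM untreated and 2248 to 5362 treated, without overlap, and of 7 such markers tested 1 fell, Fn1, from 7251 ± 1349 to 958 ± 881 CPM (adjusted p = 0.0383). Fn1 made up much of the untreated sum, and the median log2 fold change of the 7 was −1.60. B cell marker sums were 37.9 to 46.1 CPM untreated and 73.3 to 189 treated, and epithelial sums 105 to 320.1 and 71 to 102, both without overlap, with Cdh1 lower at 11.5 ± 4.02 CPM against 73.9 ± 19.9 (adjusted p = 0.00483). The part of these cells in the result was not tested.

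The treatment effects were compared directly by interaction terms. The fall in tumor was smaller than in spleen by 0.79 to 2.75 on the log2 scale in PMN-MDSC, but 0 of 8 members passed in edgeR (6 had an unadjusted p under 0.05, and DESeq2 called 2, H2-Ab1 and Cd74), where 3.50% of 8047 genes did. The nearest was H2-Ab1, with a difference of 2.75 ± 0.782 (adjusted p = 0.0658). Without treated tumor library 4, the library with the lowest class II levels, 5 passed (H2-Aa, H2-Ab1, H2-Eb1, Cd74 and H2-DMa), and without untreated spleen library 3, 1 passed (H2-Ab1). Without untreated spleen library 1, the difference of H2-Ab1 was 2.05, and those of H2-Aa, H2-Eb1, Ciita and H2-DMb1 went from 2.24, 2.07, 1.77 and 2.55 to 1.57, 1.36, 1.11 and 1.69; that of H2-DMa went from 2.39 to 3.01 without treated spleen library 3. In M-MDSC the differences were 0.29 to 1.91, with 0 of 7 passing (2 unadjusted, 0 in DESeq2) against 0.790% of 8730 genes; without treated tumor library 2, those of H2-Aa, H2-Ab1 and Cd74 went from 1.91, 1.89 and 1.36 to 0.51, 0.51 and 0.42, and those of Ciita (−0.66), H2-DMb1 (−0.50) and H2-Eb1 (−0.02) changed sign. Between cell types, the fall in spleen M-MDSC was smaller than in spleen PMN-MDSC by 1.26 to 2.15, with 0 of 8 passing (3 unadjusted, and 1 in DESeq2, H2-DMa) against 10.9% of 8417 genes. There, 3 passed without untreated PMN-MDSC library 3 (H2-Ab1, Cd74 and H2-DMa) and 1 without treated M-MDSC library 4 (H2-DMa), when the difference of H2-DMb2 went from 1.26 to 0.18. Without untreated PMN-MDSC library 1, the differences of H2-Aa, H2-Ab1, H2-Eb1, Cd74, Ciita and H2-DMb1, 1.30 to 1.99 with all libraries, were 0.56 to 1.07, and that of H2-DMa went from 2.15 to 2.80 without treated PMN-MDSC library 3. In tumor, with differences of −0.22 to 1.30, 0 of 7 passed (0 unadjusted, and 0 in DESeq2, which gave a p for only 4) against 0.0239% of 8385 genes; without treated M-MDSC library 2, the differences of H2-Aa (−0.18), H2-Ab1 (−0.41), H2-Eb1 (−0.34), Cd74 (−0.16) and Ciita (−1.05) turned negative, and that of H2-DMb1 went from −0.22 to −0.97. A value that misses the threshold does not show that the effects were alike: the standard errors of these differences were 0.442 to 0.997.

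In untreated mice, 6 of the 8 class II genes tested were higher in tumor than in spleen PMN-MDSC, H2-DMb2 was lower and Ciita did not pass. The 7 calls stand against 59.1% of 7971 genes called in either direction. H2-Oa, at 1.61 ± 1.12 CPM in tumor and 4.62 ± 2.27 in spleen, and H2-Ob, at 4.53 ± 2.23 and 12.3 ± 5.30, were not tested. H2-Eb1 held 915 to 1268 CPM in tumor and 134 to 619 in spleen (log2 fold change 2.10 ± 0.441, adjusted p = 0.00219), and Cd74 3892 to 5805 against 752 to 2706 (1.97 ± 0.404, adjusted p = 0.00188). H2-DMa and H2-DMb1 were higher too, by 1.94 ± 0.357 and 1.99 ± 0.485. H2-DMb2 ran the other way, with 7.36, 5.19, 9.59 and 10.6 CPM in tumor and 42.6, 17.6, 16.3 and 23.3 in spleen (−1.51 ± 0.357, adjusted p = 0.00435). Ciita, at 153 ± 19.1 in tumor and 117 ± 90 CPM in spleen, did not pass (0.49 ± 0.403, adjusted p = 0.310), and passed at 1.21 (adjusted p = 4.6e-04) without spleen library 1, which alone held 250.5 CPM. Without that library the differences of H2-Aa, H2-Ab1, H2-Eb1, Cd74 and H2-DMb1 went from 1.91, 1.77, 2.10, 1.97 and 1.99 to 2.64, 2.52, 2.86, 2.60 and 2.91. Macrophage marker sums were 3551 to 4494 CPM in tumor and 557 to 1811 in spleen, and classical monocyte sums 4766 to 8990.4 and 841 to 2247. Neutrophil sums were 965 to 3851 and 19683 to 35325, and B cell sums 83.3 to 126 and 354 to 461. None of these overlapped, while conventional dendritic cell sums did (395 to 455 and 334 to 560.3). The part of these cells was not tested.

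In untreated M-MDSC, 3 of 7 genes tested were higher in tumor than in spleen; whether this difference departs from that in PMN-MDSC was not tested. H2-Eb1 was higher, at 430.3 to 726 against 124 to 319 CPM (log2 fold change 1.20 ± 0.266, adjusted p = 0.00547), as were H2-Ab1 (0.78 ± 0.226, adjusted p = 0.0223) and H2-Aa (0.74 ± 0.237, adjusted p = 0.0371). These 3 of 7 stand against 28.4% of 8298 genes. Ciita held 193 ± 30.5 CPM in tumor and 242 ± 47.8 in spleen (−0.29 ± 0.175, adjusted p = 0.252). The calls of H2-Aa and H2-Ab1 were lost without spleen library 3 (adjusted p = 0.0871 and 0.0627), tumor library 3 (0.117 and 0.0689) or tumor library 4 (0.0536 and 0.0557), and that of H2-Aa also without tumor library 1 (0.0684). Without tumor library 4, the shallowest of all, H2-DMa and H2-DMb1 passed (0.0279 and 0.0247). Macrophage marker sums were 1845 to 2643 CPM in tumor and 393 to 494 in spleen, classical monocyte sums 10017 to 13643 and 5086 to 7776, and B cell sums 37.9 to 46.1 and 77.6 to 177, each without overlap, while conventional dendritic cell sums overlapped (165 to 189 and 140.2 to 281); their part was not tested.

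After treatment, all 7 genes tested were higher in tumor PMN-MDSC than in spleen PMN-MDSC, against 53.6% of 8031 genes. The log2 fold changes were 4.15 to 4.55 for H2-Aa, H2-Ab1, H2-Eb1, Cd74, H2-DMa and H2-DMb1, and 2.28 ± 0.771 for Ciita (adjusted p = 0.0339). The call of Ciita was lost without any 1 of the 3 spleen libraries (adjusted p = 0.0703, 0.0687 and 0.107 without libraries 1, 2 and 3) and without tumor library 1 (0.0635), 2 (0.0772) or 3 (0.0637). Macrophage marker sums were 3461 to 6382 CPM in tumor and 94.7 to 204 in spleen, and classical monocyte sums 2469 to 3623 and 1125 to 2250.5. Neutrophil sums were 3244 to 10293 and 39699 to 71199.7, conventional dendritic cell sums 145 to 373 and 15 to 99.5, and B cell sums 144 to 194 and 293 to 396. None of these overlapped, and the part of these cells was not tested. In treated M-MDSC, 0 of 7 passed in edgeR (4 unadjusted; DESeq2 called H2-Aa, H2-Ab1, H2-Eb1 and Cd74), against 5.87% of 9026 genes. H2-Ab1 held 179.7, 802 and 94.7 CPM in tumor, each above the 30.2 to 76.7 of spleen (2.64 ± 0.684, adjusted p = 0.0649), while Ciita overlapped, at 1.39 to 64.2 against 12.3 to 44.2. Without tumor library 3, H2-Aa, H2-Ab1 and Cd74 passed (adjusted p = 0.0427, 0.0361 and 0.0438), and without tumor library 2 the differences of H2-Aa, H2-Ab1, H2-Eb1 and Cd74 went from 2.61, 2.64, 2.81 and 1.87 to 1.21, 1.25, 1.15 and 0.93, and those of Ciita (−0.96) and H2-DMb1 (−0.14) changed sign. Macrophage sums were 2379 to 9731 CPM in tumor and 681 to 1029.5 in spleen, without overlap, while conventional dendritic cell sums (201 to 658 and 143 to 245) and B cell sums (73.3 to 189 and 83.0 to 333) overlapped; their part was not tested.

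Between the cell types of untreated spleens, 4 of 8 genes tested were called, a smaller share than the 64.4% of all 8579 genes: H2-DMa, H2-DMb1 and Ciita were higher in M-MDSC and H2-DMb2 was lower. H2-DMa held 109 to 111 CPM in M-MDSC and 15.5 to 59.0 in PMN-MDSC (log2 fold change 1.84 ± 0.350, adjusted p = 0.00141), and H2-DMb1 84.1 to 110.2 against 10.2 to 65.5 (1.79 ± 0.496, adjusted p = 0.0102). H2-DMb2 was lower in M-MDSC, at 8.54 to 13.7 against 16.3 to 42.6 CPM (−1.26 ± 0.340, adjusted p = 0.00886). Ciita was higher (1.09 ± 0.429, adjusted p = 0.0474), a call that was lost without any 1 library other than PMN-MDSC library 1 (adjusted p = 0.0597 to 0.117). H2-Aa, H2-Ab1 and Cd74 did not pass with all libraries (0.36, 0.33 and 0.72), and did without PMN-MDSC library 1 (1.09, 1.08 and 1.36; adjusted p = 0.00657, 0.00620 and 9.4e-04), when 7 of 8 passed and the sign of H2-Eb1 turned from −0.17 to 0.60; there Ciita was at 1.80 and H2-DMb1 at 2.73. Macrophage sums were 393 to 494 CPM in M-MDSC and 557 to 1811 in PMN-MDSC, classical monocyte sums 5086 to 7776 and 841 to 2247, conventional dendritic cell sums 140.2 to 281 and 334 to 560.3, and B cell sums 77.6 to 177 and 354 to 461, each without overlap; their part was not tested.

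In untreated tumors H2-Aa, H2-Ab1, H2-Eb1 and Cd74 were lower in M-MDSC than in PMN-MDSC, 4 of 7 tested against 13.0% of 7623 genes. H2-Eb1 held 430.3 to 726 CPM in M-MDSC and 915 to 1268 in PMN-MDSC (log2 fold change −1.10 ± 0.178, adjusted p = 0.00143). H2-Aa (−0.86 ± 0.180, adjusted p = 0.00759), H2-Ab1 (−0.70 ± 0.163, adjusted p = 0.0126) and Cd74 (−0.74 ± 0.191, adjusted p = 0.0220) were lower too, Cd74 no longer without M-MDSC library 1 (0.0606) or 2 (0.0603) or PMN-MDSC library 3 (0.0550). Macrophage marker sums in these libraries were 1845 to 2643 CPM in M-MDSC and 3551 to 4494 in PMN-MDSC, conventional dendritic cell sums 165 to 189 and 395 to 455, and B cell sums 37.9 to 46.1 and 83.3 to 126; classical monocyte sums were 10017 to 13643 and 4766 to 8990.4, and none of these sums overlapped. Their part was not tested. In treated spleens all 7 genes tested were higher in M-MDSC, against 61.2% of 8153 genes, from 1.62 for H2-Eb1 (adjusted p = 0.0205) to 4.10 ± 0.594 for H2-DMa (adjusted p = 6.5e-04); H2-Eb1 did not pass without PMN-MDSC library 2 (0.0811) or 3 (0.0684), and H2-DMa was at 4.69 without the latter. In the same libraries macrophage sums were 681 to 1029.5 CPM in M-MDSC and 94.7 to 204 in PMN-MDSC, and conventional dendritic cell sums 143 to 245 and 15 to 99.5. Classical monocyte sums were 2847 to 4249 and 1125 to 2250.5, and neutrophil sums 752 to 3697 and 39699 to 71199.7. None of these overlapped, and the part of these cells was not tested. In treated tumors 0 of 7 passed (0 unadjusted, 0 in DESeq2), against 0.380% of 8955 genes, and the signs of H2-Aa, H2-Ab1, H2-Eb1, Cd74 and Ciita, 0.04 to 0.38 with all libraries, turned without M-MDSC library 2 (−0.78 to −1.44) or PMN-MDSC library 4 (−0.29 to −0.00); without the former, H2-DMb1 went from −0.06 to −0.83.

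Bulk tumor held less of all 7 class II genes tested than the MDSC sorted from untreated tumors. H2-Ab1 held 39.0, 91.9, 81.4 and 98.4 CPM, 20.0-fold below PMN-MDSC and 11.7-fold below M-MDSC, and Ciita 9.32, 34.8, 16.9 and 33.1 CPM, 7.93-fold and 9.03-fold below. H2-DMa stood lowest against the sorted cells, at 1.89 to 6.77 CPM, 33.1-fold below PMN-MDSC (log2 fold change −5.05 ± 0.322, adjusted p = 8.6e-08) and 31.5-fold below M-MDSC. All 7 genes tested were lower in both comparisons, where 69.5% of 11138 and 69.2% of 11022 genes were called in either direction. The median log2 fold changes were −4.32 and −3.47 over the members and 0.09 and 0.17 over all genes. The C1qa level of bulk tumor was 12 to 31.3 CPM and its epithelial marker sum 4564 to 6246 CPM, against 105 to 714 CPM in the untreated MDSC of the tumor.

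The amount of Ciita in relation to the chains differed by compartment. Counts of Ciita per 100 counts of H2-Ab1 in the same library do not depend on scaling. They were 28.1, 31.2, 31.3 and 26.8 in PMN-MDSC of untreated spleens and 10.8, 12.3, 10.3 and 15.1 in those of untreated tumors, without overlap. In M-MDSC they were 48.8, 69.7, 47.0 and 40.9 in untreated spleens and 26.2, 32.5, 14.9 and 23.3 in untreated tumors, again without overlap. With poly(I:C)c the ratio in spleen M-MDSC (48.4, 57.7, 40.6 and 35.9) and in spleen PMN-MDSC (25, 50.0 and 42.1, from 5 to 12 Ciita counts a library) overlapped with untreated. In tumor PMN-MDSC it was 8.05, 7.87, 9.02 and 3.38, below every untreated library, and in tumor M-MDSC 15, 8.01 and 1.47, which touches the lowest untreated value. Treated tumor M-MDSC library 3 stood apart, with 4 Ciita counts (1.39 CPM) beside 272 counts of H2-Ab1 (94.7 CPM). No test was made on the ratios.

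**Figure D3:**
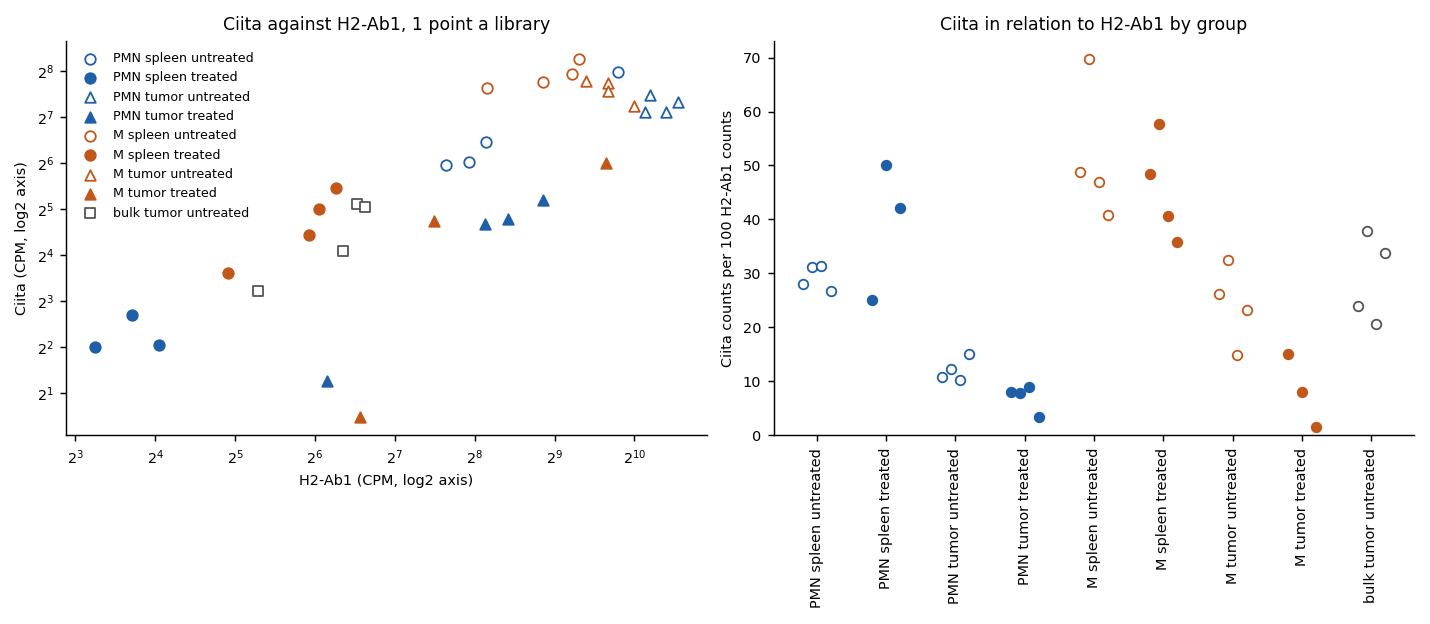
The left panel plots Ciita against H2-Ab1 in CPM on log2 axes, with 1 point a library (circles spleen, triangles tumor, squares bulk tumor; open untreated, filled treated; blue PMN-MDSC, orange M-MDSC), and the right panel the Ciita counts per 100 H2-Ab1 counts of the same libraries by group. The ratio in tumor PMN-MDSC is at most 15.1 untreated and 9.02 treated, against at least 25 in every spleen library.

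The chains were set against H2-Ab1 in the same way. H2-Aa stood at 51.9 to 90.2 counts per 100 H2-Ab1 in every library except 1 of treated spleen PMN-MDSC (137, from 26 and 19 counts). H2-Eb1 stood at 43.4 to 50.6 per 100 in M-MDSC of untreated spleens and at 81.8 to 93.7 in PMN-MDSC of untreated tumors, without overlap. Cd74 in relation to H2-Ab1 was higher after treatment in spleen M-MDSC, at 554, 661, 661 and 658 per 100 against 428, 448, 439.7 and 408, without overlap, and in spleen PMN-MDSC, at 440.0, 679 and 605 against 304 to 377. Over the 15 PMN-MDSC libraries, the rank correlation with H2-Ab1 was 0.97 to 0.99 for H2-Aa, H2-Eb1, Cd74, H2-DMa and H2-DMb1, 0.85 for Ciita and 0.24 for H2-DMb2; over the 15 M-MDSC libraries it was 0.93 to 0.98 for H2-Aa, H2-Eb1 and Cd74, 0.63 for Ciita and 0.36 for H2-DMb2. The libraries share groups and mice, so these values describe the spread over 4 groups and carry no test.

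The H2-DM beta chains went apart by population. H2-DMb2 stood at 65.1, 78.4, 117 and 229 counts per 100 H2-DMb1 in PMN-MDSC of untreated spleens and at 3.16 to 12.4 in the untreated groups of M-MDSC and of tumor PMN-MDSC. In treated spleen PMN-MDSC it was 233, 950.0 and 300.0, from only 2 to 3 H2-DMb1 counts. In treated spleen M-MDSC it was 12.2, 9.56 and 16, and 217 in library 4. H2-DMa, the alpha chain, stood at 29.6 to 45.2 counts per 100 H2-DMb1 in bulk tumor and at 50.0 to 426 in MDSC, without overlap. Per length this is 1.17 ± 0.590 FPKM of H2-DMa beside 6.49 ± 3.01 of H2-DMb1 in bulk tumor, against 32.7 ± 4.02 and 62.9 ± 8.59 in PMN-MDSC of untreated tumors.

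**Figure D4:**
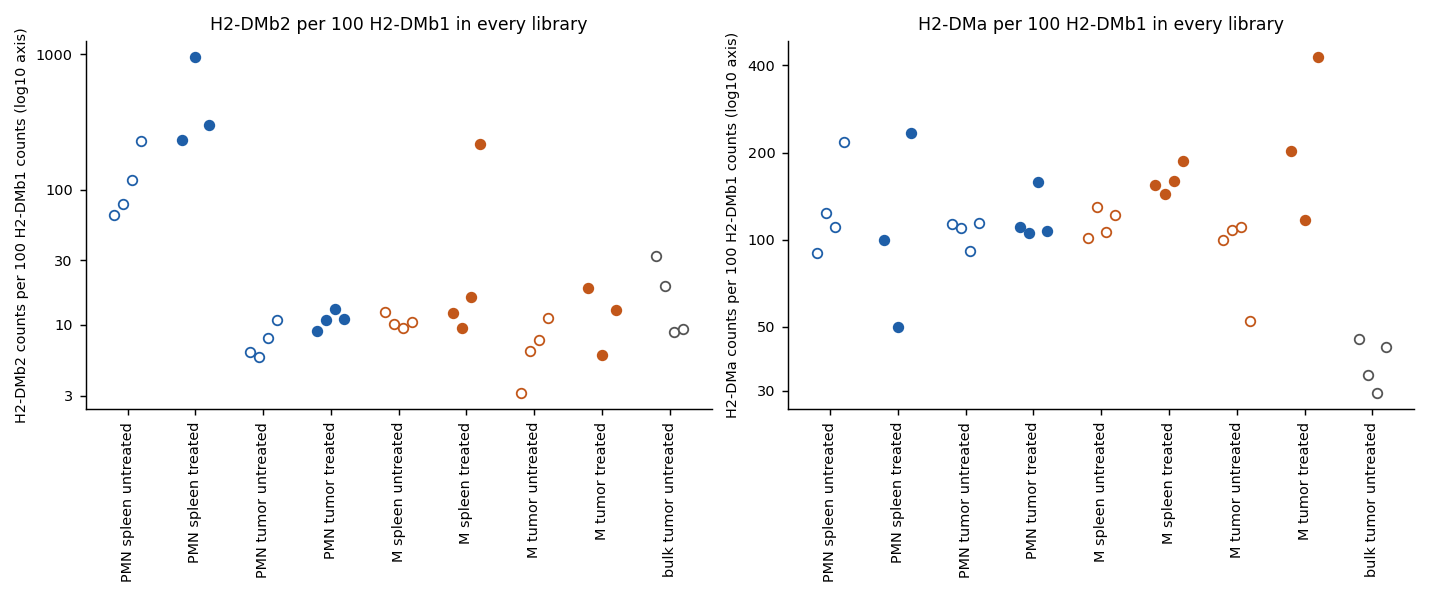
Counts of H2-DMb2 (left) and H2-DMa (right) per 100 counts of H2-DMb1 on a log10 axis, with 1 point a library in the 9 groups (open untreated, filled treated; blue PMN-MDSC, orange M-MDSC, grey bulk tumor). Spleen PMN-MDSC and 1 treated spleen M-MDSC library (217) stand at 65.1 or more in the left panel, and the bulk tumor libraries are lowest in the right panel, at 29.6 to 45.2.

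H2-Oa and H2-Ob, the chains of the H2-DM inhibitor that is found mostly in B cells, were near the counting limit in most libraries. H2-Ob was highest in PMN-MDSC of untreated spleens (4.66 to 16.1 CPM, 12 to 57 counts) and in treated spleen M-MDSC library 4 (12.3 CPM, 31 counts), and elsewhere held 0 to 7.08 CPM. B cell markers summed to 354 to 461 CPM in the former 4 libraries and 333 in the latter, against 37.9 to 194 in tumor MDSC and 77.6 to 177 in the other spleen M-MDSC. Treated spleen PMN-MDSC had B cell sums of 293, 376 and 396 CPM with only 0, 4.35 and 1.0 CPM of H2-Ob. Whether B cells account for the H2-O and H2-DMb2 counts was not tested.

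**Figure D5:**
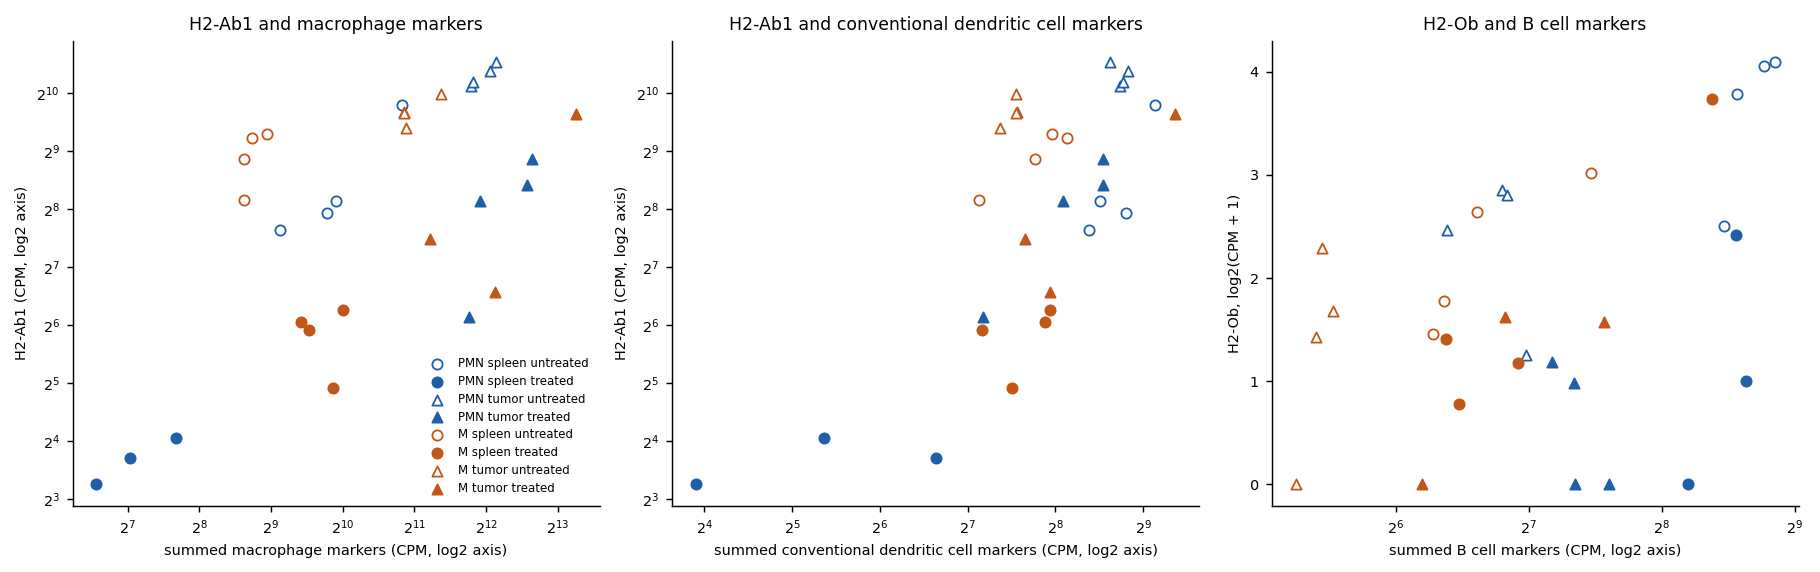
Each point is an MDSC library (circles spleen, triangles tumor; open untreated, filled treated; blue PMN-MDSC, orange M-MDSC). The panels plot H2-Ab1 against the summed macrophage markers and against the summed conventional dendritic cell markers (CPM, log2 axes), and H2-Ob as log2(CPM + 1) against the summed B cell markers; treated spleen PMN-MDSC, at 94.7 to 204 CPM of macrophage markers and 9.52 to 16.5 CPM of H2-Ab1, lie at the lower left of the first panel, whereas treated spleen M-MDSC lie below untreated ones with sums of 681 to 1029.5.

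The DNA-binding partners of Ciita gave 1 call in the 4 treatment comparisons, and a factor that did not pass is not shown to be unchanged. Of 7 promoter factors (Rfx5, Rfxap, Rfxank, Nfya, Nfyb, Nfyc and Creb1), all were tested in each treatment comparison, and only Creb1 passed, in spleen M-MDSC, from 127 ± 17.1 to 76.7 ± 21.5 CPM (log2 fold change −0.78 ± 0.194, adjusted p = 0.0205). Rfx5, the DNA-binding subunit of RFX, held 14.8 ± 3.92 CPM untreated and 18.8 ± 3.26 treated in spleen PMN-MDSC, and 25.5 ± 3.29 and 39.3 ± 12 in spleen M-MDSC. The median log2 fold changes of the factors in the 4 comparisons were 0.06, −0.04, −0.03 and −0.13.

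Among genes known to regulate Ciita, the calls in PMN-MDSC were all lower. In spleen PMN-MDSC, 2 of 7 tested fell and 0 rose: Irf4 from 18.3 ± 13.8 to 1.49 ± 0.602 CPM (adjusted p = 0.0233) and Irf8 from 42.4 ± 27.5 to 7.76 ± 2.60 (adjusted p = 0.0296), both factors of dendritic cells and B cells among others. In tumor PMN-MDSC, 2 of 8 fell and 0 rose, Irf4 from 27.6 ± 14 to 3.76 ± 1.82 CPM (adjusted p = 0.00424) and Prdm1, a repressor of Ciita, from 81.4 ± 13.4 to 34.8 ± 13.5 (adjusted p = 0.0297). In tumor M-MDSC, 0 of 8 passed in edgeR.

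Genes that supply peptides or remove class II from the surface rose or did not pass in 3 of the 4 comparisons. In spleen PMN-MDSC, 2 of 9 fell, beside 5.52% of all genes called lower, while the median log2 fold change of the 9 was 0.56. The 2 were the thiol reductase gene Ifi30, from 98.8 ± 70.1 to 17.5 ± 9.17 CPM (adjusted p = 0.0347), and the protease gene Lgmn, from 76.1 ± 46.4 to 19.9 ± 8.63 (adjusted p = 0.0481). In spleen M-MDSC, 4 of 8 rose, beside the 10.7% of all genes called higher there, among them the cathepsin genes Ctsd, from 73.9 ± 16.9 to 297 ± 106 CPM (adjusted p = 0.00146), and Ctsb, from 647 ± 43.3 to 1499 ± 377 (adjusted p = 0.00202). March1, a ubiquitin ligase that sends class II to degradation, rose in tumor PMN-MDSC, where 2.29% of all genes were called higher, from 83.4 ± 3.92 to 137 ± 12.1 CPM (adjusted p = 0.0334) and in tumor M-MDSC, where 1.82% were, from 77.5 ± 8.39 to 173 ± 32.2 (adjusted p = 0.0241). Ctsd rose in tumor PMN-MDSC too (adjusted p = 0.00864) and Ctsb in tumor M-MDSC (adjusted p = 0.0254). Without treated tumor M-MDSC library 2 both calls there held (March1 0.97, adjusted p = 0.0257; Ctsb 1.16, adjusted p = 0.0201). Among 5 costimulatory genes, Cd83 alone passed, in tumor PMN-MDSC, from 542 ± 163 to 196 ± 97.1 CPM (adjusted p = 0.0408).

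The genes with the highest positive Spearman's rho over libraries with the mean log2(CPM + 1) of H2-Aa, H2-Ab1, H2-Eb1 and Cd74 were ranked. The class II members themselves were left out of the lists. Over the 15 PMN-MDSC libraries and 8047 genes, the first were Mdn1 (0.989), Sulf2 (0.979), Fchsd2 (0.975), Pros1 (0.971) and Plcl1 (0.969), followed by Fn1, Mgl2, Eif2ak4, Fasn and Olfm1 down to 0.960. Over the 15 M-MDSC libraries and 8730 genes they were Lima1 (0.946), Bmp2k (0.943), Fcgr2b (0.939), Plxdc2 (0.936) and Exoc6b (0.918), followed by Stard9, Dapk1, Slc9a9, Ano8 and Ptger4 down to 0.907. The 2 lists share no gene. Inverse relations were as close: Rtp4 and Ubb stood at −0.979 in PMN-MDSC and Trim30b at −0.964 in M-MDSC, named after their values were seen. These points share compartment, treatment and mice, and the ranking is a description of the libraries.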

How the data were processed

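RNA was total RNA made into stranded libraries by PCR without molecular identifiers. The authors deposited raw read counts per gene, without normalization; per the methods, reads were mapped to mm10 with ContextMap and BWA and counted by strand with featureCounts (Subread 1.4.6-p3 in the submitters' processing notes) on Gencode v16. All other values were computed here. Symbols and exon lengths came from GENCODE M21 (GRCm38) for 53274 of 53379 identifiers. Columns name cell type, compartment and treatment, but no mouse. Libraries under 1000 counts were left out, which removed 1 of 35. The sample titles carry mouse numbers that recur across spleen, tumor, both cell types and bulk tumor, so groups of the same treatment share mice. Comparisons of compartments, cell types and bulk tumor, and the interactions, nevertheless treated these libraries as independent. All p-values measure the spread between libraries and take no account of shared mice.

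CPM are counts over the library total times its TMM factor (over all 34 libraries), and FPKM are CPM over the summed exon length. Each comparison was fitted on its own groups with edgeR 4.0.16 (R 4.3.3), TMM, robust quasi-likelihood F-tests (two-sided) and Benjamini-Hochberg adjustment over genes averaging 25 counts or more, called at an adjusted p under 0.05; interactions used 4 groups. Alternatives were DESeq2 1.42.0, RLE and upper-quartile scaling, no filter, a minimum of 10 counts per library, 1 shared fit for all 4 groups of the same cell type, the limits of 0.001 and 2-fold, and each library left out. The code was tested on simulated data. The members and gene lists were chosen with earlier results of these data known. Named were the members, up to 3 called genes of each list with the smallest adjusted p, and 10 genes of like pattern per cell type; Rfx5 and the markers given by library were chosen after their values were seen. Some list genes are not reported here. Promoter sequences are RefSeq's. Intervals cover counting error only.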

Additional observations from a re-analysis of the deposited data

Results flagged for a closer look

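In 70 gene and group combinations with 4 libraries each, 7 held a highest library set apart from the other 3 by more than Dixon's critical value. For independent, normally distributed values chance gives about 1 in 20. Genes of the same library are not independent, so the count of 7 cannot be set against that rate. In untreated spleen PMN-MDSC this was library 1 for 5 genes: H2-Aa at 562 CPM (others 127 to 175), H2-Ab1 at 891 (199.5 to 282), H2-Eb1 at 619 (134 to 196), Cd74 at 2706 (752 to 929) and Ciita at 250.5 (62.5 to 88.2). The same library held 235 CPM of Ccr2 against 37.7 to 70.3, macrophage markers of 1811 CPM in sum against 557 to 964, and S100a8 at 1183 CPM against 2748 to 3634. Without it, H2-Aa, H2-Ab1, H2-Eb1, Cd74 and Ciita were still called lower after treatment, with log2 fold changes from −4.22 to −3.54.

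In treated spleen M-MDSC it was library 4 for H2-DMb2 at 19.8 CPM (others 3.25 to 3.77) and H2-Ob at 12.3 (0.722 to 1.65). That library also held the highest B cell sum of its group (333 CPM) and 19.5 CPM of Siglech. What sets these libraries apart was not tested.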

How the results depend on the processing

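Counts of members called stayed within 1.5 times under every alternative scaling. With the limits of 0.001 and 2-fold, the count of the treatment comparisons was 0 in spleen PMN-MDSC, 0 in tumor PMN-MDSC and 4 in spleen M-MDSC; of tumor against spleen, 1 (untreated PMN-MDSC), 0 (untreated M-MDSC) and 3 (treated PMN-MDSC); of M-MDSC against PMN-MDSC, 0 (untreated spleen), 0 (untreated tumor) and 3 (treated spleen). Requiring 10 counts in every library left 4 members called in spleen PMN-MDSC, where fewer members were tested. With DESeq2 the count was 1 for treatment in tumor M-MDSC, 2 and 1 for the interactions of PMN-MDSC over compartments and of spleen over cell types, and 4 for treated M-MDSC over compartments. Without the count filter these were 2, 1, 8 and 1, and 4 for the interaction of M-MDSC over compartments; the cause was not tested. The fit over 4 groups called 2 in tumor M-MDSC.

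With 1 library left out, the treatment counts were 6 to 8 in spleen PMN-MDSC, 0 to 7 in tumor PMN-MDSC, 7 to 7 in spleen M-MDSC and 0 to 6 in tumor M-MDSC. Interactions gave 0 to 5 and 0 to 0 over compartments in PMN-MDSC and M-MDSC, and 0 to 3 and 0 to 0 over cell types in spleen and tumor. Tumor against spleen gave 7 to 8, 1 to 3, 6 to 7 and 0 to 3 for untreated PMN-MDSC, untreated M-MDSC, treated PMN-MDSC and treated M-MDSC. M-MDSC against PMN-MDSC gave 3 to 7, 3 to 4, 6 to 7 and 0 to 0 for untreated spleen, untreated tumor, treated spleen and treated tumor, and bulk tumor 7 to 7 in both comparisons. No fold change of a member changed sign in a treatment comparison.

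Scaling to library totals moved 5 of 90 group means by more than 1 SD: in treated spleen PMN-MDSC to 8.28 CPM for H2-Aa, 9.95 for H2-Eb1 and 52.8 for Cd74, and in untreated spleen M-MDSC to 129 for H2-DMa and 114 for H2-DMb1. Upper-quartile scaling moved the median log2 fold change of all genes in spleen PMN-MDSC from 0.01 to −0.16 and the share of calls that were lower from 47.5% to 64.4%, far less than the change of any member there. No paired analysis was possible because the running numbers in the column names of the count table stand in no label, so that columns were tied to groups and not to mice, and treated and untreated mice are different animals. The columns run through the groups in the same order as the sample titles. No label ties that order to mice, so it was not used for pairing. What a fit paired by mouse would give for compartments, cell types and interactions was not tested. Depth limits H2-Oa, H2-Ob and H2-DMb2, and in treated spleen PMN-MDSC also H2-DMa (1 to 7 counts) and H2-DMb1 (2 to 3 counts).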
